A study of Rattus norvegicus with 4 samples.

Results

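The 10 genes described here encode ligands (Jag1, Jag2, Dll1), receptors (Notch1, Notch2, Notch3), a modifier (Lfng) and transcriptional targets (Hes1, Hey1, Hey2) of the Notch pathway. They were taken by name: every probe set whose gene symbol in the platform annotation was exactly 1 of these genes, which gave 11 of the 31042 probe sets without Affymetrix controls (10 of 14217 genes with a symbol of their own). Notch1 had 2 probe sets and each of the others 1. The signals came from Affymetrix arrays of whole ovaries of 4-day-old rat pups kept in organ culture for 2 days, with GDNF (glial cell line-derived neurotrophic factor) in 2 samples and with no added factor in 2 control samples, each an RNA pool of 6 to 10 ovaries. All cultures, controls included, had insulin, transferrin, ascorbic acid, albumin and antibiotics in the medium. The strain and the dose of GDNF are not given in the sources used here. The treatment protocol attached to the GDNF samples mentions only the control condition, so the grouping rests on the titles and descriptions.

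Notch signalling passes between touching cells. A ligand on 1 cell binds a Notch receptor on its neighbour, proteases then cut the receptor, and the freed intracellular domain joins the DNA-binding protein Rbpj to switch on Hes and Hey genes, which encode transcriptional repressors. In the neonatal mouse ovary the oocyte is the main source of Jag1 and the pre-granulosa cells around it carry Notch2, and the pathway is needed for nests of germ cells to break up into primordial follicles. Notch receptors and ligands also act in endothelium, pericytes and smooth muscle.

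Values are MAS5 signals, on a linear scale, and log2 fold changes are GDNF minus control on the log2(signal + 1) scale. Of the 11 probe sets, 7 passed a filter on mean signal (about 21.4) and were tested with limma among 18625 probe sets, and the other 4 (Dll1, Notch2, Notch3 and Lfng) were too dim to test. No member passed limma's test after Benjamini-Hochberg adjustment, and no probe set on the array did (0% of 18625, with 508 at an unadjusted p under 0.05, or 2.73%). Among the tested members 5 of 7 probe sets had a higher mean in GDNF, beside 48.5% over all probe sets, and 4 of 7 kept their sign whichever sample was left out, beside 43.5%. Their median log2 fold change was 0.17, against -0.0067 over all probe sets tested. That median and count depended on single samples. Without GDNF replicate 1 the median was -0.0049 and 3 probe sets were higher, without GDNF replicate 2 the median was 0.088, without control replicate 1 it was 0.11, and without control replicate 2 it was 0.25. In 2 of the 7 the groups did not overlap (Jag1 higher and Jag2 lower in GDNF), beside 30.0% of all probe sets tested.

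**Figure D1:**
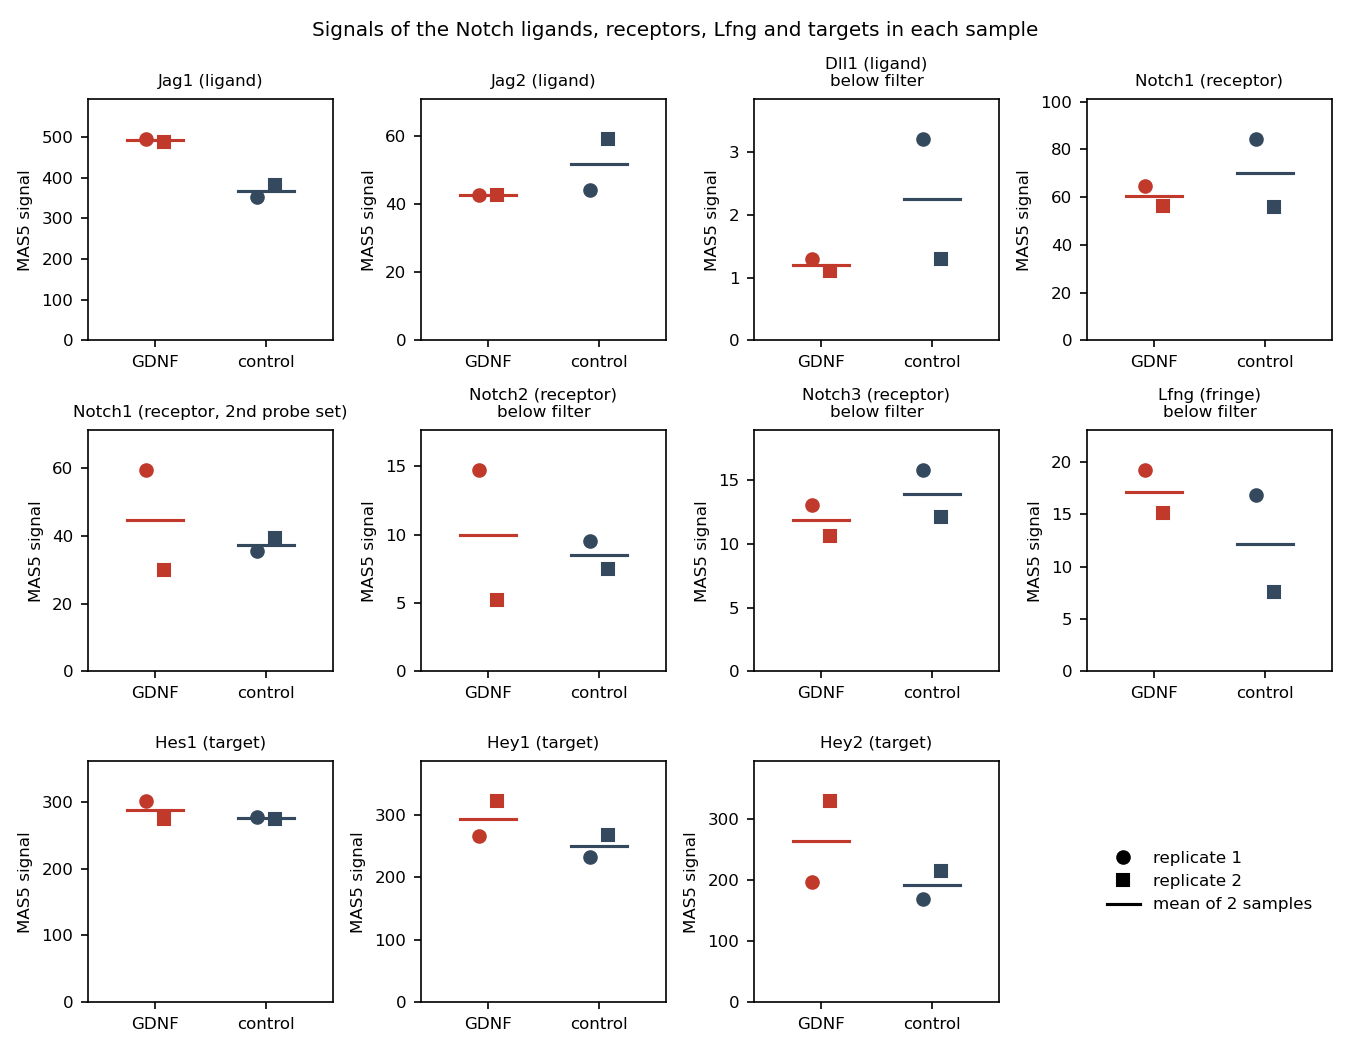
MAS5 signal (linear axis from 0, a scale of its own in each panel) of each of the 11 probe sets in the 2 GDNF samples (left) and the 2 control samples (right), with circles for replicate 1, squares for replicate 2 and lines for the group means. Jag1 lies at 494.5 and 488.1 in GDNF samples, above 353.2 and 380.7 in control samples, and for most other members the groups overlap.

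Jag1, a membrane-bound Notch ligand, was the 1 tested member with an unadjusted p under 0.05. Its signal was 494.5 and 488.1 in GDNF replicates 1 and 2, against 353.2 and 380.7 in control replicates 1 and 2. Both GDNF samples were above both control samples, and the lower GDNF signal was 1.28 times the higher control signal. It averaged 491 ± 4.53 in GDNF ovaries and 367 ± 19.4 in control ovaries (SD, n = 2 each), a ratio of 1.34. The log2 fold change was 0.42 (SE 0.11, 95% interval 0.16 to 0.68). Its unadjusted p of 0.00602 was the 41st smallest of the 18625 in limma's test, and the adjusted p was 0.999. Among all probe sets, 1.06% had an unadjusted p under 0.05 with a higher mean in GDNF, and 2.29% had a log2 fold change at least as large as that of Jag1. With each sample left out in turn the log2 fold change of Jag1 stayed between 0.37 and 0.47. With 2 samples against 2, an exact two-sided permutation test cannot give a p under 0.333.

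Markers of oocytes, like Jag1, had higher means in GDNF. Of 10 oocyte markers 7 had a probe set, and all 7 had a higher mean in GDNF (48.5% of all probe sets tested did). For 4 of them GDNF was higher with no overlap between the groups (13.4% of all probe sets tested). For Zp2, Sohlh1 and Kit the groups overlapped, with 1 GDNF sample below control replicate 2. Summed over the 7, signal was 5329 and 6696 in GDNF replicates 1 and 2, against 4008 and 5015 in control replicates 1 and 2. Zp2 and Zp3 made up most of that sum. Zp2 had 1802.9 and 2436.6 in GDNF samples against 1477.6 and 1871.7 in control samples. Zp3 had 2106.4 and 2732.4 in GDNF samples against 1664.8 and 2014.2 in control samples. The median log2 fold change of the 7 was 0.56. None of the 7 was at 0 in any sample, and the lowest signal was 24.5. Granulosa markers likewise had 4 of 7 tested genes higher in GDNF with no overlap, and 2 lower with no overlap. The part of oocyte and granulosa markers in the Jag1 difference was not tested. In whole ovaries, a difference in the number of cells of a type and a difference in RNA per cell cannot be told apart.

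**Figure D2:**
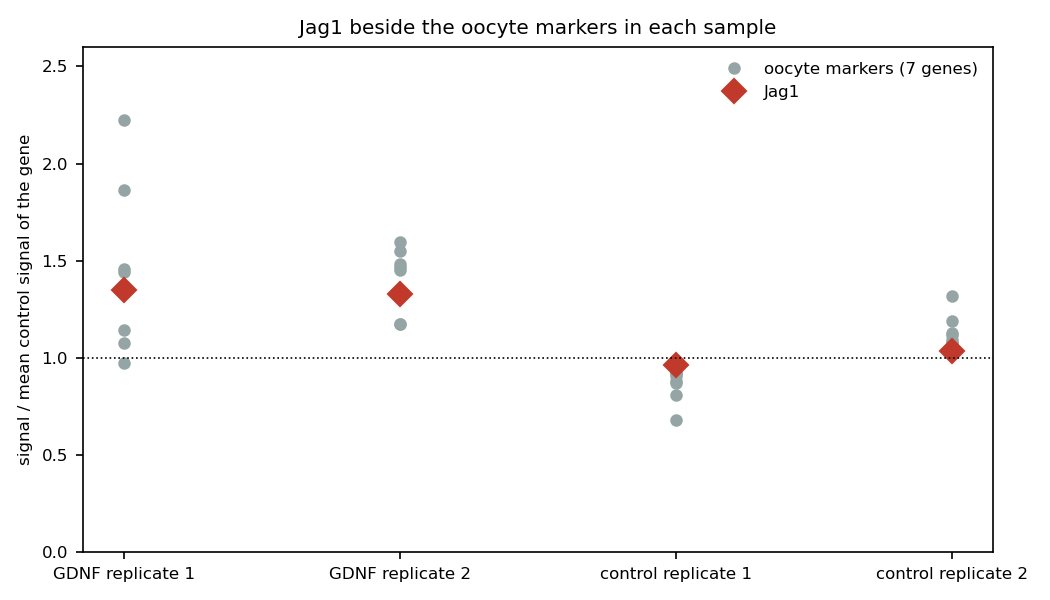
Signal of Jag1 (diamonds) and of 7 oocyte markers (circles) in each sample, divided by the gene's own mean in control samples (linear axis, dotted line at 1). Jag1 lies at 1.35 and 1.33 in GDNF replicates 1 and 2 and at 0.963 and 1.04 in control replicates 1 and 2. Most oocyte markers lie above 1 in both GDNF samples. Every oocyte marker, like Jag1, also lies above 1 in control replicate 2 and below 1 in control replicate 1.

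Jag2, a second ligand of the Jagged type, pointed the other way. Its signal was 42.7 and 42.6 in GDNF replicates 1 and 2, against 44.3 and 59.1 in control replicates 1 and 2. The groups did not overlap, but control replicate 1 lay close to the GDNF samples and control replicate 2 stood apart. Jag2 had a log2 fold change of -0.26 (SE 0.23, 95% interval -0.81 to 0.29, limma adjusted p = 0.999). It was -0.054 without control replicate 2 and -0.46 without control replicate 1. Dll1, a Delta-type ligand, was at the bottom of the signal range, with 1.3 and 1.1 in GDNF samples and 3.2 and 1.3 in control samples, and no difference can be read at that level.

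Among the receptors only Notch1 was bright enough to test, and its probe sets did not give 1 direction. The brighter one had 64.8 and 56.3 in GDNF replicates 1 and 2, against 84.3 and 55.8 in control replicates 1 and 2. Control replicate 1 was the high sample, and control replicate 2 lay just below both GDNF samples. The log2 fold change was -0.18 (SE 0.24, 95% interval -0.76 to 0.39), which turned to 0.11 without control replicate 1 and was -0.47 without control replicate 2, -0.28 without GDNF replicate 1 and -0.081 without GDNF replicate 2. The dimmer one had 59.4 and 30.0 in GDNF replicates 1 and 2, against 35.5 and 39.4 in control replicates 1 and 2. Here the GDNF samples lay on either side of both control samples. This gave a log2 fold change of 0.17 (SE 0.34, 95% interval -0.63 to 0.97), which turned to -0.31 without GDNF replicate 1 and was 0.65 without GDNF replicate 2 and 0.099 without control replicate 1. The limma adjusted p was 0.999 for each.

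Notch2, the receptor of pre-granulosa cells in the mouse, had a dim probe set, with 14.7 and 5.2 in GDNF samples and 9.5 and 7.5 in control samples. Notch3, a receptor known from pericytes and vascular smooth muscle, had 13.1 and 10.6 in GDNF samples and 15.8 and 12.1 in control samples. In both the groups overlapped, and all samples lay below the filter. MAS5 subtracts a mismatch estimate, so signals this low are noisy, and a dim probe set does not show that the gene is not expressed. Lfng, a fringe glycosyltransferase that adds sugar to Notch and alters which ligands it answers, had 19.2 and 15.1 in GDNF samples against 16.8 and 7.6 in control samples. Its groups overlapped as well, with control replicate 2 the low sample.

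The targets Hey2 and Hey1 had higher means in GDNF with overlapping groups, and Hes1 differed by less than its standard error. Hey2, a repressor of the Hairy and Enhancer-of-split related family, had 197.4 and 328.9 in GDNF replicates 1 and 2, against 168.9 and 215.4 in control replicates 1 and 2. GDNF replicate 2 was far above the other samples, and GDNF replicate 1 lay between the control samples. It averaged 263 ± 93.0 in GDNF ovaries and 192 ± 32.9 in control ovaries (SD, n = 2 each). Its log2 fold change of 0.42 (SE 0.25, 95% interval -0.17 to 1.00) was close in size to that of Jag1, whose SE was 0.11. It was 0.049 without GDNF replicate 2, 0.78 without GDNF replicate 1 and 0.24 without control replicate 1 (limma adjusted p = 0.999 with all samples).

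Hey1, of the same family as Hey2, had 265.2 and 321.6 in GDNF replicates 1 and 2, against 231.9 and 268.3 in control replicates 1 and 2. The overlap was narrow, since GDNF replicate 1 lay just under control replicate 2. Hey1 had a log2 fold change of 0.23 (SE 0.15, 95% interval -0.12 to 0.57, limma adjusted p = 0.999). It was 0.088 without GDNF replicate 2, 0.12 without control replicate 1 and 0.37 without GDNF replicate 1. For both Hey genes the replicate 2 sample of each group was above its replicate 1 sample. In limma with group and replicate number as terms, Hey2 passed for replicate 2 minus replicate 1 (log2 difference 0.54, adjusted p = 0.0302), and it was the 1 of the 7 tested probe sets to pass, beside 2.30% of all probe sets. Hey1 had a replicate difference of 0.24 (adjusted p = 0.306) and Jag1 one of 0.045 (adjusted p = 0.903). That fit leaves 1 residual degree of freedom. What the number marks is not given in the labels, and its part in the treatment difference of the Hey genes was not tested.

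Hes1, the best known target of the pathway, had 300.6 and 274.6 in GDNF replicates 1 and 2, against 277.3 and 273.8 in control replicates 1 and 2. Apart from GDNF replicate 1 the samples lay within a few units of each other. Its log2 fold change was 0.060 (SE 0.12, 95% interval -0.22 to 0.34). It turned to -0.0049 without GDNF replicate 1 and was 0.13 without GDNF replicate 2 (limma adjusted p = 0.999 with all samples).

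**Figure D3:**
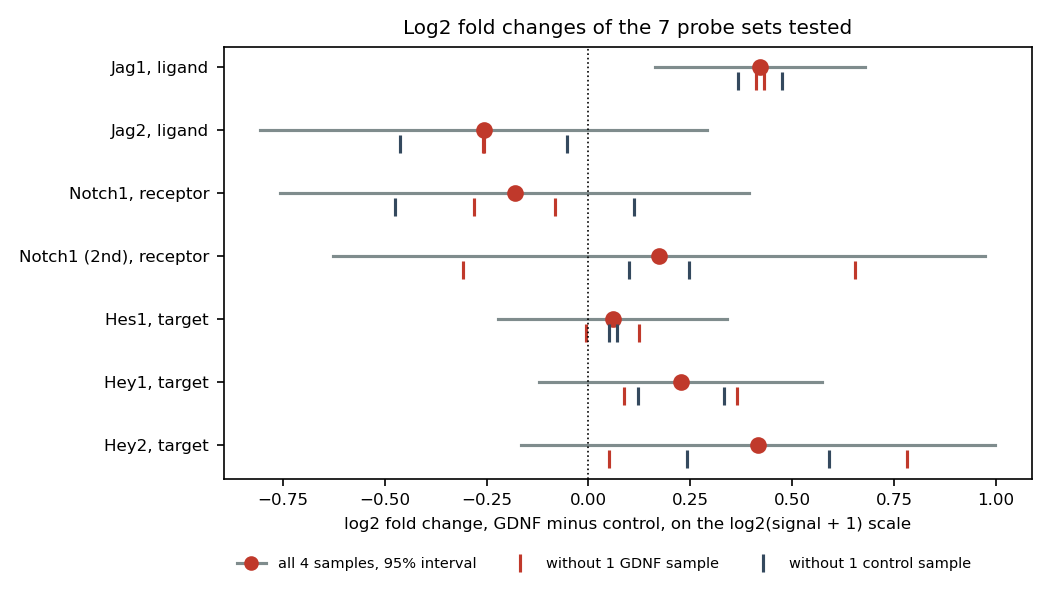
Log2 fold change (GDNF minus control, on the log2(signal + 1) scale) of the 7 probe sets tested, with dots for all 4 samples, lines for limma's 95% interval and ticks below each line for the value without 1 GDNF sample (red) or 1 control sample (dark). The interval of Jag1, from 0.16 to 0.68, is the only 1 of the 7 that does not hold 0, and the ticks of both Notch1 probe sets and of Hes1 fall on both sides of 0.

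The 250 bases before the start of Jag1, Hes1 and Hey2 are shown because Jag1 differed most clearly from its spread among the members and because Hes1 and Hey2 are targets switched on through Rbpj. They are RefSeq promoter sequences of build GRCr8, 5' to 3' on the strand of the gene, and capitals mark TGGGAA, the core of the Rbpj motif, or its reverse complement TTCCCA. The windows are chr3:144894884-144895133 (minus strand), chr11:84213046-84213295 (minus strand) and chr1:28640850-28641099 (plus strand). Of the 10 genes, 9 were found in the promoter table, and Hey1 was not among them.
Jag1: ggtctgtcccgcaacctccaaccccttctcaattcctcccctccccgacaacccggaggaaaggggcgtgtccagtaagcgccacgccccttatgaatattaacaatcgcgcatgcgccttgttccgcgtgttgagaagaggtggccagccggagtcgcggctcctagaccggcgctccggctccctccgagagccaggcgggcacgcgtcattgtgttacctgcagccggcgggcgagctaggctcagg
Hes1: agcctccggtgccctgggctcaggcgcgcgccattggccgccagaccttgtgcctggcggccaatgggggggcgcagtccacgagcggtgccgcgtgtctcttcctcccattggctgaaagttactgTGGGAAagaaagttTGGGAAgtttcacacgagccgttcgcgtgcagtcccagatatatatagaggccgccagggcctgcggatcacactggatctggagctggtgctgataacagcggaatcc
Hey2: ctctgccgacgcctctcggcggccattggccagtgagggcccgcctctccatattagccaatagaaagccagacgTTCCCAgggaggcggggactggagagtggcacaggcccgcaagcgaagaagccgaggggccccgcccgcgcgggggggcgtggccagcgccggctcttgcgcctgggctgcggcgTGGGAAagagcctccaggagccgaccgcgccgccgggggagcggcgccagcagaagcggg
Hes1 and Hey2 each held TGGGAA 2 times, counted on both strands, as did Dll1 and Lfng, and the windows of Jag1, Jag2, Notch1, Notch2 and Notch3 held none. Over the 33469 promoter windows of that length, 22.1% held it. The longer form GTGGGAA, which contains it, stood 1 time each in the windows of Hes1, Hey2, Dll1 and Lfng and in 5.3% of all windows. In Hes1 the 2 matches lie on the same strand, starting 123 and 109 bases before the start, and in Hey2 they lie on opposite strands, starting 175 and 60 bases before it. A match is a string of letters and not a measured binding site.

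The wider pathway was read from a list of 57 further genes, of which 46 had a probe set and 41 were tested, each by its brightest probe set. Of the 41, 21 were higher on average in GDNF and 20 were lower, with a median log2 fold change of 0.00052, and none passed limma's adjusted test. By brightest probe set the groups did not overlap for 16 (5 higher and 11 lower), or 39.0%. Over every tested probe set of the list the count was 18 of 59 (5 higher and 13 lower), or 30.5%. The share of all probe sets tested was 30.0% (13.4% higher and 16.6% lower). Log2 fold changes of the 41 ran from -0.32 to 0.46, and 3 of the 41 were at least 0.3 in size.

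Those 3 were Heyl, Tle1 and Dlk1. Heyl, the third gene of the Hey family, had 58.3 and 57.9 in GDNF replicates 1 and 2, against 38.4 and 45.8 in control replicates 1 and 2. Both GDNF samples were above both control samples, and the log2 fold change was 0.46 (SE 0.21, 95% interval -0.038 to 0.96, limma adjusted p = 0.999). A dimmer probe set of Heyl overlapped between the groups and went the other way, with 29.5 and 24.8 in GDNF samples against 27.6 and 35.0 in control samples (log2 fold change -0.19, -0.36 without control replicate 1, -0.028 without control replicate 2, -0.31 without GDNF replicate 1 and -0.073 without GDNF replicate 2). Tle1, a Groucho corepressor recruited by Hes proteins, had 142.1 and 135.8 in GDNF replicates 1 and 2, against 103.2 and 112.6 in control replicates 1 and 2 (log2 fold change 0.36, SE 0.15). It was the 1 gene of the 41 with an unadjusted p under 0.05 (0.0435, limma adjusted p = 0.999), beside 2.73% of all probe sets. Tle3, another Groucho corepressor, which was named after its values were seen, lay on the other side (log2 fold change -0.23). Dlk1, a Delta-like protein that lacks the Notch-binding DSL domain, had 57.0 and 50.9 in GDNF samples against 79.1 and 57.5 in control samples. Its log2 fold change of -0.32 (SE 0.22) was -0.093 without control replicate 1 and -0.55 without control replicate 2.

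Rbpj, the DNA-binding protein through which all Notch receptors act, had 632.9 and 596.2 in GDNF replicates 1 and 2, against 584.7 and 529.7 in control replicates 1 and 2. The groups did not overlap, by a margin of 1.02 times, and the log2 fold change was 0.14 (SE 0.11, 95% interval -0.12 to 0.40). It was 0.071 without control replicate 2 and 0.21 without control replicate 1. Dimmer tested probe sets of Rbpj overlapped between the groups, with log2 fold changes of 0.22 and 0.15. These were -0.12 and -0.34 without GDNF replicate 1, and 0.56 and 0.65 without GDNF replicate 2. Of the 7 genes of the nuclear complex, 5 had a lower mean in GDNF, beside 9586 of the 18625 probe sets tested. None of the 7 had a log2 fold change below -0.14. Nrarp, a Notch target that feeds back on the pathway, overlapped between the groups, with 77.0 and 84.3 in GDNF samples against 55.0 and 79.0 in control samples. Its log2 fold change was 0.29 (SE 0.22), 0.028 without control replicate 1 and 0.54 without control replicate 2. A dimmer tested probe set of Nrarp had 0.068, which was -0.16 without GDNF replicate 1 and 0.29 without GDNF replicate 2. Dll4, the Delta-type ligand of endothelium, had 33.1 and 38.0 in GDNF samples against 40.4 and 31.1 in control samples (log2 fold change 0.00052, SE 0.26). That value was -0.18 without control replicate 2, 0.18 without control replicate 1, -0.096 without GDNF replicate 2 and 0.097 without GDNF replicate 1. Another probe set of Dll4 had 0.25, which was 0.061 without GDNF replicate 1, 0.45 without GDNF replicate 2, 0.11 without control replicate 1 and 0.40 without control replicate 2. Notch4, an endothelial receptor, was below the filter in each of its probe sets, and the brightest had 11.3 and 17.5 in GDNF samples against 9.1 and 6.9 in control samples.

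**Figure D4:**
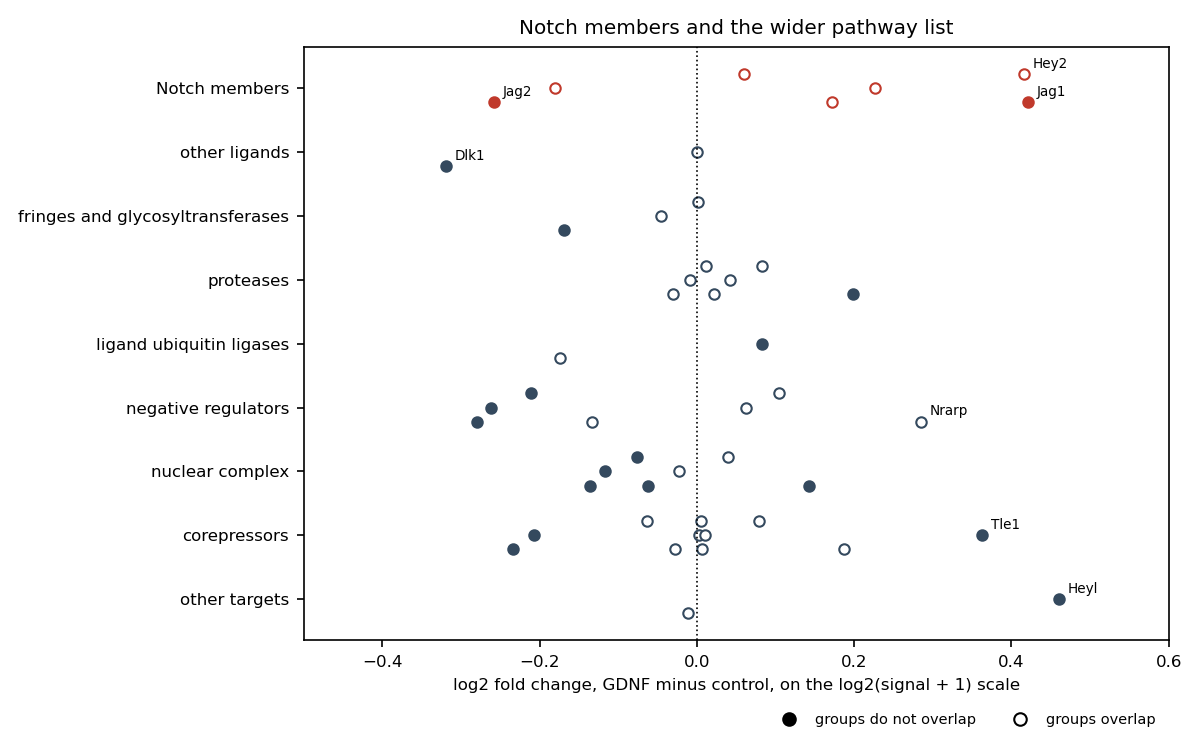
Log2 fold change (GDNF minus control, on the log2(signal + 1) scale) of the 7 tested probe sets of the Notch members (red, top) and of the brightest probe set of each of 41 genes of the wider pathway list, by role (dark). Filled points have groups that do not overlap, and the points run from -0.32 (Dlk1) to 0.46 (Heyl).

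Markers of the other ovarian cell types differed in direction, and none passed limma's adjusted test. Summed signals of endothelial markers were 1474 and 1444 in GDNF samples against 1516 and 1574 in control samples (2 of 7 tested genes higher). Kdr made up most of that sum, with 817.9 and 777.9 in GDNF samples against 902.6 and 920.4 in control samples. Smooth muscle and pericyte markers had 406 and 405 in GDNF samples against 493 and 494 in control samples (1 of 7 higher). Granulosa markers had 4305 and 3955 in GDNF samples against 4126 and 3619 in control samples, with 5 of 7 tested genes higher and overlapping sums. Of these 7, 4 lay higher and 2 lower with no overlap, beside 13.4% and 16.6% of all probe sets tested. Surface epithelium and mesothelium markers had 5285 and 4723 in GDNF samples against 6446 and 5416 in control samples (0 of 6 higher). Krt19 made up most of that sum, with 3364.9 and 3236.1 in GDNF samples against 4090.6 and 3632.0 in control samples. Theca and steroidogenic markers had 687 and 628 in GDNF samples against 537 and 468 in control samples (3 of 4 higher). Most of that sum was Hsd3b1, with 550.4 and 514.5 in GDNF samples against 405.3 and 344.4 in control samples. Leukocyte markers had 826 and 604 in GDNF samples against 760 and 643 in control samples (1 of 5 higher). Most of that sum was Cd14, the 1 higher, with 589.8 and 406.8 in GDNF samples against 485.3 and 417.0 in control samples. The part of any of these marker lists in the members' values was not tested. The median signal per array was 36.7 to 41.1, and having only 2 arrays a group limits how precise each value is.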

How the data were processed

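The authors deposited intensities on a linear scale, made with MAS5 (version not given) according to the submitters' processing notes. MAS5 combines perfect-match and mismatch probes and scales each array. The trimmed mean was 125 on each of the 4 arrays, which hides any change in total RNA. The table held 31099 probe sets, 57 of them Affymetrix controls that were set aside. Signals were converted to log2(signal + 1). The 18625 probe sets from the 40th percentile of mean log2 signal upward were tested in limma 3.58.1 (R 4.3.3), by a two-sided moderated test with a mean-variance trend and group as the only term, with Benjamini-Hochberg adjustment over all of them and a threshold of 0.05. The code was tested on simulated data. Detection calls were not used.

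Gene names come from the platform annotation at GEO. The Entrez identifiers of all 10 members matched RefSeq's GRCr8 gene table, with the same symbols. Genes of the wider list are named if their groups did not overlap and the brightest probe set differed by a log2 of at least 0.3, and Rbpj, Dll4, Notch4, Heyl and Nrarp always. No gene is named for a pattern like a member's, since 4 samples are too few for a correlation. Marker lists held 54 genes, each read by its brightest probe set. The members and lists were chosen with earlier results of these data known. Nothing in the labels says that replicates came from separate litters or cultures, so the p-values reflect the spread among these 4 samples alone, part of which may be technical. The moderated test also draws each probe set's variance towards a trend over all probe sets tested. A p-value or SE is thus not set by the spread of its own probe set alone. Alternatives changed the pseudocount, filter, scaling, variance trend, replicate block and probe set choice, and left out each sample in turn.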

Additional observations from a re-analysis of the deposited data

How the results depend on the processing

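Under 12 alternatives no member passed the adjusted threshold, and Jag1, Jag2, Hey1 and Hey2 kept their direction in each alternative that tested them. Jag1 ranged from 0.37 to 0.47. Leaving out 1 sample at a time, the log2 fold changes ran from -0.47 to 0.11 and from -0.31 to 0.65 in the brighter and dimmer probe sets of Notch1, and from -0.0049 to 0.13 in Hes1. The median of the tested members ran from -0.0049 to 0.25, and 3 to 6 of the 7 had a higher mean. That median was 0.063 with no filter (all 11 probe sets) and 0.32 with a filter at the 60th percentile (4 probe sets), since the filter sets which members enter. Of the 41 tested genes of the wider list, 18 to 23 had a higher mean under the alternatives that kept all 41, as did 25 of 46 with no filter and 18 of 34 at the 60th percentile. Unadjusted p-values under 0.05 numbered 508 with all samples and 142 to 1927 with a sample left out (the fewest without control replicate 1, the most without GDNF replicate 1), 1093 with no filter and 1355 with the replicate block.

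The groups share replicate numbers, and the labels do not say what they mark. Deviations of same-numbered samples from their group means correlated at 0.32 over probe sets, which 2 pairs cannot turn into a pairing. Log2 signals of the 2 GDNF samples correlated at 0.971, and those of the 2 control samples at 0.984. Each GDNF sample correlated more closely with both control samples (0.976 to 0.986) than with the other GDNF sample. With the replicate number as a block, 8 probe sets passed the adjusted threshold (0.0430%) against 0 without it, and no member was among them. The block fit leaves 1 residual degree of freedom, so its p-values lean on the variance that limma estimates across all probe sets. Of the markers, Gdf9 passed with the block (limma adjusted p = 0.0469) and not without it (0.999). Jag1 had an adjusted p of 0.146 and Hey2 of 0.297 in limma with the block. GDNF minus control was 0.48 within replicate 1 and 0.36 within replicate 2 for Jag1, and 0.22 and 0.61 for Hey2. Low signals limit what can be said of Dll1, Notch2, Notch3 and Lfng.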

Other observations

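Some other probe sets of the wider list, named after their values were seen, had groups that did not overlap. Over all probe sets tested that share was 30.0%, and no such share was taken over the probe sets too dim to test. Hes2 had 17.4 and 15 in GDNF samples against 5.3 and 5.1 in control samples, and Dll3 had 5.4 and 8.8 in GDNF samples against 0.8 and 1.4 in control samples. Both were too dim to be tested. Hes5, also too dim, went the other way in its brighter probe set, with 15.2 and 9.1 in GDNF samples against 19.1 and 20.4 in control samples. Its dimmer probe set had 3.9 and 4.4 in GDNF samples against 3.2 and 3.4 in control samples. The dimmer probe set of Rfng, a fringe glycosyltransferase, had 41.5 and 46.5 in GDNF samples against 59.1 and 69.6 in control samples (log2 fold change -0.54, limma adjusted p = 0.999), while the brighter one had 119.7 and 143.7 in GDNF samples against 132.0 and 130.1 in control samples (0.0012, and from -0.13 to 0.13 with 1 sample left out). Numb, which antagonises Notch, had 413.2 and 349.5 in GDNF samples against 483.2 and 440.5 in control samples (log2 fold change -0.28, SE 0.13, limma adjusted p = 0.999, and -0.16 without GDNF replicate 2). A dimmer probe set of Numb overlapped between the groups. Its log2 fold change of -0.35 was 0.12 without GDNF replicate 2 and -0.83 without GDNF replicate 1.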
